A study of Mus musculus with 5 samples.

Results

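The desmosome gene list held 9 genes, Dsg2, Dsg3, Dsc2, Dsc3, Dsp, Jup, Pkp1, Pkp3 and Perp, chosen by name as the main building blocks of the desmosome. Of these, 8 were measured among the 23173 genes listed in 5 single-cell libraries of mouse colon, and Dsp, which encodes desmoplakin, was not analysed here. Desmosomes are adhesive junctions that tie the intermediate filaments of neighbouring epithelial cells together. Across the gap between cells, desmogleins (Dsg) and desmocollins (Dsc) bind each other, and on the inside plakoglobin (Jup) and plakophilins (Pkp) join these cadherins through desmoplakin to the keratins. Simple epithelia such as the lining of the colon are known to use mainly Dsg2 and Dsc2, whereas stratified squamous epithelia add Dsg3 and Dsc3.

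The libraries were made by inDrop, a droplet method that counts the 3' ends of transcripts as unique molecular identifiers (UMIs). In 4 libraries, tumors of wild type (WT) mice given AOM/DSS (the mutagen azoxymethane and the colitis agent dextran sodium sulfate, an inflammation-driven model of colon cancer) had been treated with 5FU and Irinotecan. Both day 1 libraries (replicates 1 and 2) form the early treatment group, and the day 3 and day 6 libraries form the late treatment group. The last library holds untreated WT colon dissociated for fibroblasts. No untreated tumor was analysed here, so all tumor cells carried both the AOM/DSS induction and the drugs. Day 1 replicate 1 and day 3 had a single index and were sequenced on the BGI MGI-Seq, and day 1 replicate 2 and day 6 had a dual index and were sequenced on the NovaSeq6000. In the study's methods, filtering retained epithelial crypts of the tumors, while crypts were shaken off the normal colon before digestion, so the columnar cells of that library are those left behind. The mice were of C57BL/6J or mixed background, their age at sampling is not in the labels, and the sources differ on whether days count from the start or from the end of treatment.

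Cells were kept where at least 500 genes were detected and mitochondrial counts made up no more than 15%. This left 748 and 2403 cells in replicates 1 and 2 of day 1, 1419 in day 3, 2826 in day 6 and 1095 in the normal library, and values of the 4 treated libraries are given in this order throughout. The deposited totals ranged from 5132360 to 16904947 UMIs per library, with medians of 2903 to 3601 UMIs per kept cell. Barcode sequences found in more than 1 library numbered 159, and no pair of libraries shared over 41. Cells were clustered without the desmosome genes and without the related junction genes, and clusters were named from other markers, such as Krt8, Krt20, Cdx1 and Cdh17 for columnar-like and Krt5, Krt14, Trp63 and Pitx1 for squamous-like cells. Columnar-like cells numbered 124, 891, 873 and 1344 in the treated libraries and 327 in the normal library. Squamous-like cells numbered 53, 188, 280 and 730, and none were named in the normal library. The classes rest on other genes of the same cells, so they are not independent of genes that vary together with those markers. Macrophage-, neutrophil-, T cell-, B cell- and plasma-like cells, called immune cells below (134, 578, 34, 493 and 147), are not known to build desmosomes and serve here as a background level, which can hold free RNA and any RNA of their own, and these were not told apart.

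Columnar-like cells held Dsg2 almost without Dsg3, and squamous-like cells had UMIs of both, with Dsg2 clear of the immune level in day 6 only. Dsg2, the desmoglein of simple epithelia, had 494, 486, 305 and 387 CPM (UMIs of the gene for each 1000000 UMIs of the class in that library) in columnar-like cells. In squamous-like cells of the same libraries it had 173, 139, 107 and 91.9 CPM. Every columnar-like value lay above every squamous-like value, and within a library the columnar-like level was 2.84 to 4.21 times the squamous-like one.

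Part of the squamous-like Dsg2 signal was at the level of immune cells. Immune cells had Dsg2 at 105, 122, 188 and 45.6 CPM, so that squamous-like cells lay above them in day 1 replicate 1 and day 6, close to them in day 1 replicate 2 and below them in day 3. The exact 95% Poisson intervals, which here and throughout cover counting error only, overlapped in all treated libraries but day 6, where they were 83.3 to 101 in squamous-like and 36.05 to 56.9 in immune cells. The immune value of day 3 rests on 17 counts in 34 cells, with an interval of 109.7 to 301.

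Dsg3, the desmoglein of basal squamous layers and the antigen of pemphigus vulgaris, had the opposite distribution. It stood at 135, 139.6, 13.9 and 63.2 CPM in squamous-like cells, from 50, 144, 16 and 291 counts. Columnar-like cells had 3.20, 5.94, 3.80 and 2.63 CPM, and the immune cells of day 1 replicate 2 and day 6 had 4.32 and 2.92. The columnar-like and immune intervals overlapped in both libraries (4.31 to 7.97 against 1.86 to 8.51, and 1.65 to 3.98 against 0.949 to 6.82), so the columnar-like Dsg3 signal could not be told from the immune background. Immune cells of day 1 replicate 1 and day 3 had 0 counts, where 3 counts would give 6.17 and 33.2 CPM. Day 3 had the lowest squamous-like level, and its interval of 7.92 to 22.5 CPM lay below those of the other 3 libraries.

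Desmocollins differed from this pattern. Dsc3, the desmocollin of squamous epithelia, had 317, 186, 79.7 and 159.8 CPM in squamous-like cells and 2.40, 2.70, 6.66 and 8.25 CPM in columnar-like cells. Immune cells had 0, 8.09, 22.1 and 8.77 CPM, so columnar-like cells lay below the immune value in day 1 replicate 2, day 3 and day 6. Their intervals overlapped those of immune cells in day 3 and day 6 and not in day 1 replicate 2. The day 3 immune value rests on 2 counts in 34 cells, with an interval of 2.68 to 80.0 CPM. Every squamous-like value was above every columnar-like value.

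Dsc2, the desmocollin present in all epithelia, was found in both classes. It had 143, 165, 112 and 193 CPM in columnar-like cells and 255, 272, 114 and 216 CPM in squamous-like cells, and 39.1 to 55.4 CPM in the immune cells of these libraries. The ranges of both classes overlapped, and the squamous-like level was 1.02 to 1.78 times the columnar-like one within a library. Squamous-like cells therefore held Dsc3 beside Dsc2, while their Dsg2 was the only one of the 8 genes below its columnar-like level in all 4 libraries.

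**Figure D1:**
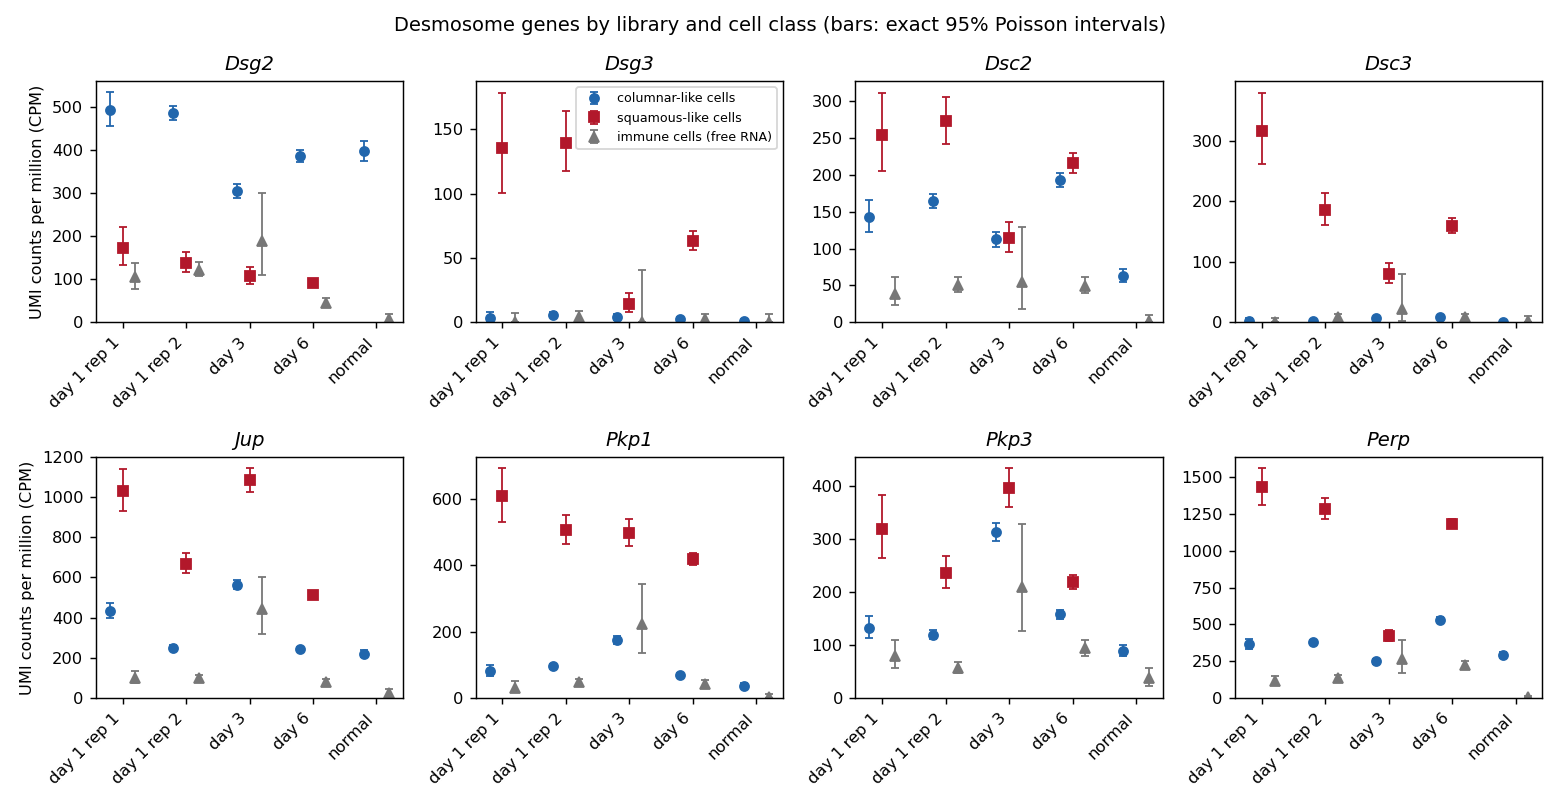
Level of each measured desmosome gene in CPM (vertical axis, linear) in columnar-like, squamous-like and immune cells of each library (horizontal axis), with exact 95% Poisson intervals as bars. Dsg2 is highest in columnar-like cells of every library, Dsg3 and Dsc3 stand clear of the immune level in squamous-like cells of day 1 and day 6, and the immune level of day 3 is the least certain.

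Isoform use was summarised as the share of Dsg3 among all Dsg2 and Dsg3 UMIs and of Dsc3 among all Dsc2 and Dsc3 UMIs. UMIs of 3' ends do not scale with transcript length, but capture can differ between genes, so the shares are compared between cell classes and are not read as ratios of molecules. In columnar-like cells the Dsg3 share was 0.643%, 1.21%, 1.23% and 0.676%. In squamous-like cells it was 43.9%, 50.2%, 11.4% and 40.8%, with exact 95% binomial intervals of 34.6 to 53.5, 44.2 to 56.1, 6.68 to 17.9 and 37.1 to 44.5. The share was thus 10.2 to 49.0 percentage points higher in squamous-like cells, with day 3 far below the other libraries. The mean difference was 35.6 ± 17.3 points (SD, n = 4), positive in 4 of 4 libraries (exact two-sided sign-flip permutation test, p = 0.12, the smallest that 4 libraries allow).

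The Dsc3 share was 1.65%, 1.61%, 5.59% and 4.10% in columnar-like cells. In squamous-like cells it was 55.5%, 40.6%, 41.1% and 42.5%, with intervals of 48.5 to 62.3, 36.1 to 45.2, 34.6 to 47.8 and 40.2 to 44.9. Unlike the Dsg3 share, it was similar in day 3 and day 6, and only day 1 replicate 1 stood above the rest. The mean difference between the classes was 41.7 ± 8.23 points (SD, n = 4), again positive in 4 of 4 libraries (exact two-sided sign-flip permutation test, p = 0.12).

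Subtracting the immune background moved the Dsg3 share more than the Dsc3 share. When the CPM of immune cells of the same library was subtracted from each gene, the Dsg3 share of squamous-like cells came to 66.4%, 89.3%, 100% and 56.6%, where the value for day 3 arises because no Dsg2 was left. The Dsc3 share came to 59.5%, 44.5%, 49.4% and 47.6%. The mean difference between the classes was then 77.0 points for Dsg3 and 49.7 points for Dsc3.

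**Figure D2:**
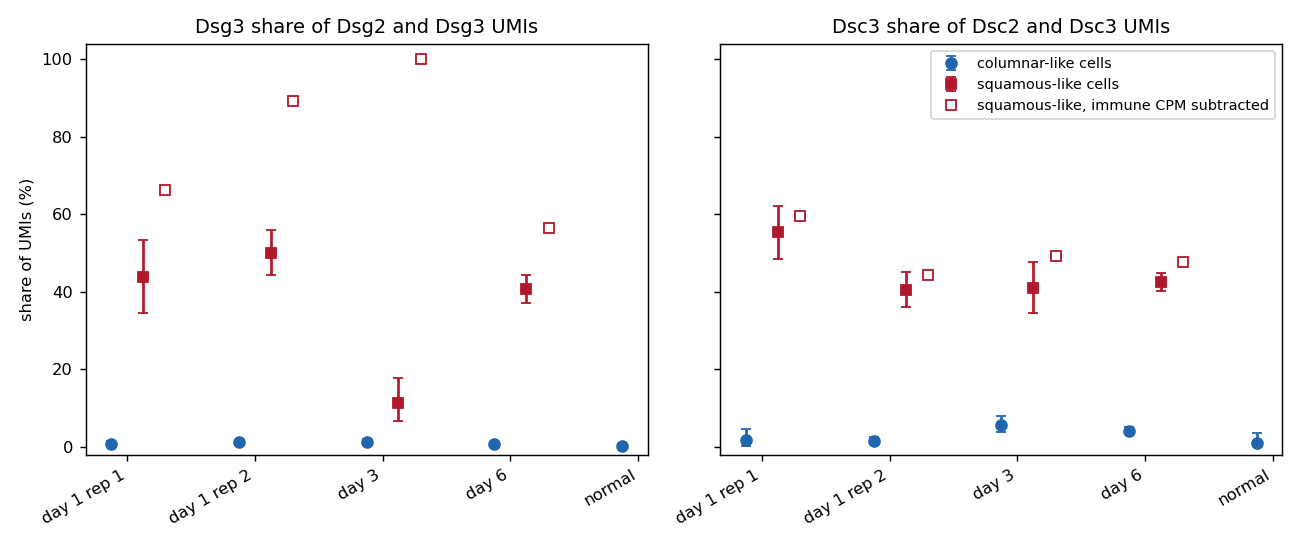
Share of Dsg3 among Dsg2 and Dsg3 UMIs (left) and of Dsc3 among Dsc2 and Dsc3 UMIs (right), in percent, by library, with exact 95% binomial intervals for columnar-like (circles) and squamous-like cells (filled squares). Open squares give squamous-like cells after subtraction of the immune CPM, which moves the Dsg3 share of day 3 from 11.4% to 100% and the Dsc3 share of that library from 41.1% to 49.4%.

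Normal columnar-like cells had the lowest Dsg3 and Dsc3 shares of the 5 columnar-like groups, with intervals that overlapped those of some tumor libraries. The 327 cells had 1223 Dsg2 counts (398 CPM, interval 376 to 420.5) and 3 Dsg3 counts (0.975 CPM, interval 0.201 to 2.85), a Dsg3 share of 0.245% (interval 0.0505 to 0.713). They had 195 Dsc2 counts (63.4 CPM) and 2 Dsc3 counts (0.650 CPM), a Dsc3 share of 1.02% (interval 0.123 to 3.62). Immune cells of this library held 4 Dsg2 counts (7.15 CPM), 1.80% of the columnar-like level, while the immune Dsc3 level (1.79 CPM, 1 count) was above the columnar-like one.

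Against the 4 tumor libraries, normal Dsg2 lay inside the range of tumor columnar-like cells (305 to 494 CPM) and normal Dsc2 below it (112 to 193 CPM). Normal Jup (220.4 CPM), Pkp1 (36.4) and Pkp3 (88.7) were also below the tumor ranges of 245 to 565, 69.6 to 174 and 119.7 to 313 CPM. Perp, at 289.6 CPM, was inside the range of 248 to 532. Immune cells of the tumors carried more of these genes than normal immune cells did (Pkp1 30.8 to 221 CPM against 3.57), and the part of this background in the higher tumor values was not tested. In the normal library the immune level was 42.3% of the columnar-like one for Pkp3 and 12.2% for Jup. With 1 normal library, prepared by another dissociation, condition and preparation cannot be told apart, and no test was made.

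Of the 327 columnar-like cells, 247 had a UMI of Dsg2 without Dsg3, 3 had both and none had Dsg3 alone. The dividing-cell cluster led by Top2a and Ube2c (27 cells) had Dsg2 at 164 CPM, the cluster led by Foxq1 and Clca3b at 287 CPM and the cluster led by Tgm3 and Car1, an enzyme of surface colonocytes, at 521 CPM. The Dsg2 intervals of the 3 clusters did not overlap (56, 315 and 852 counts). Pkp1, at 52.7, 63.7 and 14.7 CPM, was instead lowest in the Tgm3 cluster. Normal goblet-like cells (70 cells) had Dsg2 at 239 CPM and 0 Dsg3 counts of 140 desmoglein UMIs, with an exact interval of the share up to 2.60%.

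Across many single squamous-like cells both isoforms were found together. In day 6, 89 of 730 squamous-like cells had UMIs of Dsg2 and Dsg3, 95 of Dsg3 alone and 179 of Dsg2 alone. For desmocollins, 214 cells had UMIs of Dsc2 and Dsc3, 143 of Dsc3 alone and 136 of Dsc2 alone. In day 3 only 8 of 280 cells had both desmogleins and 21 both desmocollins. Free Dsg2 RNA can add UMIs to any cell, so joint detection is not proof that 1 cell makes both.

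Shares of cells with a UMI were also compared after each cell was thinned to 1000 UMIs. Dsg2 was then detected in 34.7%, 32.4%, 24.7% and 24.8% of columnar-like and in 22.6%, 16.0%, 11.4% and 7.92% of squamous-like cells. Immune cells had 7.46%, 13.1%, 11.8% and 5.87%, so in day 3 the squamous-like share was no higher than the immune one. Without thinning the shares were 51.5% to 79.0% in columnar-like, 30.7% to 58.5% in squamous-like and 13.2% to 27.2% in immune cells, at median depths of 2048.5 to 5479, 2532.5 to 5667.5 and 2068 to 2499.5 UMIs.

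For Dsc3 the thinned shares were 17.0%, 9.04%, 10% and 13.9% of squamous-like cells. Columnar-like cells had at most 1.07% and immune cells at most 2.94%. Dsg3 was thinner, with 5.66%, 5.32%, 1.79% and 4.10% of squamous-like cells and at most 0.458% of columnar-like cells. In the treated libraries thinning left out cells of day 6 only, 126 columnar-like, 23 squamous-like and 16 immune cells with fewer UMIs.

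On the inner side of the junction, Jup (plakoglobin, which binds the tails of desmosomal cadherins) was detected in both classes and was higher in squamous-like cells of every library. It had 434, 251, 565 and 245 CPM in columnar-like and 1032, 669, 1082 and 513 CPM in squamous-like cells. The single index libraries, day 1 replicate 1 and day 3, had the higher values in both classes, and the ratio within a library was 1.92 to 2.67. In immune cells Jup had 101, 99.8, 443 and 78.9 CPM.

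Pkp1, the plakophilin of suprabasal squamous layers, had 80.7, 95.5, 174 and 69.6 CPM in columnar-like and 607, 507, 498 and 418 CPM in squamous-like cells. No values of both classes overlapped, and the ratio within a library was 2.86 to 7.52. In day 3 the immune value of 221 CPM (20 counts) exceeded the columnar-like one.

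Pkp3, a plakophilin of simple and stratified epithelia alike, differed less. Columnar-like cells had 133, 119.7, 313 and 158 CPM, squamous-like cells 319.7, 236, 397 and 218 CPM and immune cells 80.2, 56.7, 210.4 and 93.5 CPM. The classes overlapped across libraries, and within a library the squamous-like level was 1.27 to 2.41 times the columnar-like one.

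Perp, a tetraspan membrane protein needed for desmosomes of stratified epithelia and a target of p53 and p63, had 367, 379, 248 and 532 CPM in columnar-like cells. Squamous-like cells had 1433, 1286, 423 and 1185 CPM and immune cells 113, 139, 266 and 225 CPM. Its ratio between the classes ran from 1.71 in day 3 to 3.90 in day 1 replicate 1, and the day 3 squamous-like value lay below the columnar-like value of day 6.

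The classes were compared by edgeR's quasi-likelihood test on UMI counts summed per library and class, with the library as a term and Benjamini-Hochberg adjustment over the 12603 genes tested. Of the 8 genes, 6 were higher in squamous-like cells at an adjusted p under 0.05, against 10.7% of all genes tested, and 1 was lower, against 11.5%. The median log2 change of the 8 was 1.32, beside -0.01 over all genes. The genes and the naming rule were chosen with earlier results of these data known, so these counts describe the list and are no unbiased measure of enrichment. Dsc3 rose by 4.94 (SE 0.48, adjusted p = 0.000223) and Dsg3 by 4.19 (SE 0.44, adjusted p = 0.000296) on the log2 scale in edgeR. Dsg2 fell by 1.71 (SE 0.19, edgeR adjusted p = 0.000452).

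Among the plaque genes and Perp, the log2 change was 2.37 for Pkp1 (SE 0.23), 1.44 for Perp (SE 0.24), 1.19 for Jup (SE 0.18) and 0.78 for Pkp3 (SE 0.21), with edgeR adjusted p-values of 0.000224, 0.00266, 0.00169 and 0.0277. For Dsc2 the change of 0.46 (SE 0.21) missed the threshold (edgeR adjusted p = 0.160). The call for Pkp3 was lost without day 1 replicate 1 (edgeR adjusted p = 0.159) or without day 1 replicate 2 (0.108), and those for Jup, Perp and Pkp3 without the library term (0.111, 0.0530 and 0.401). Nothing states whether each library was 1 animal or a pool. With the library term, the p-values measure how far the difference between the classes varied over 4 libraries, not the spread of levels between them.

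The other junction genes moved unevenly. Of 9 other desmosome and linker genes, 5 were tested, 3 rose, 1 fell and 1 did not pass, with a median log2 change of 1.69. Of all genes tested, 10.7% rose and 11.5% fell. Evpl and Ppl, the envoplakin and periplakin of the cornified envelope, rose by 1.75 (SE 0.19) and 1.69 (SE 0.35), with edgeR adjusted p-values of 0.00031 and 0.00778. Pkp2, the plakophilin of simple epithelia and heart, fell by 2.28 (SE 0.33, edgeR adjusted p = 0.00138), from 56.3 to 110.2 CPM in columnar-like to 5.42 to 23.4 CPM in squamous-like cells, so the plakophilins split as the desmogleins did. Dsg1b, the further tested desmoglein, was called higher (log2 change 3.09, SE 0.88, edgeR adjusted p = 0.0376) from at most 6 counts in any sum, and the desmogleins Dsg1a, Dsg1c and Dsg4 and the desmocollin Dsc1 were too low to be tested.

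Of 11 adherens junction genes, all were tested, 3 rose and 3 fell, against 10.7% and 11.5% of all genes tested, with a median log2 change of -0.10. Cdh1 (E-cadherin) fell by 0.99 (SE 0.18, edgeR adjusted p = 0.00406), from 866 to 1348 CPM in columnar-like to 415 to 643 CPM in squamous-like cells. Cdh3 (P-cadherin) rose by 5.04 (SE 0.49, edgeR adjusted p = 0.000211), with 70.6 to 190.1 CPM in squamous-like and 1.48 to 8.08 CPM in columnar-like cells. Nectin1 rose by 3.99 and Nectin4 by 1.49, whereas Nectin3 fell by 2.60 and Nectin2 by 0.72 (edgeR adjusted p-values 0.000133, 0.00461, 0.00202 and 0.0183). The catenins Ctnnb1, Ctnna1 and Ctnnd1, which link cadherins to actin, had log2 changes of -0.10, -0.54 and -0.46 that did not pass (edgeR adjusted p-values 0.800, 0.0534 and 0.0713), while DESeq2 called Ctnna1 lower (DESeq2 adjusted p = 0.0482).

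**Figure D3:**
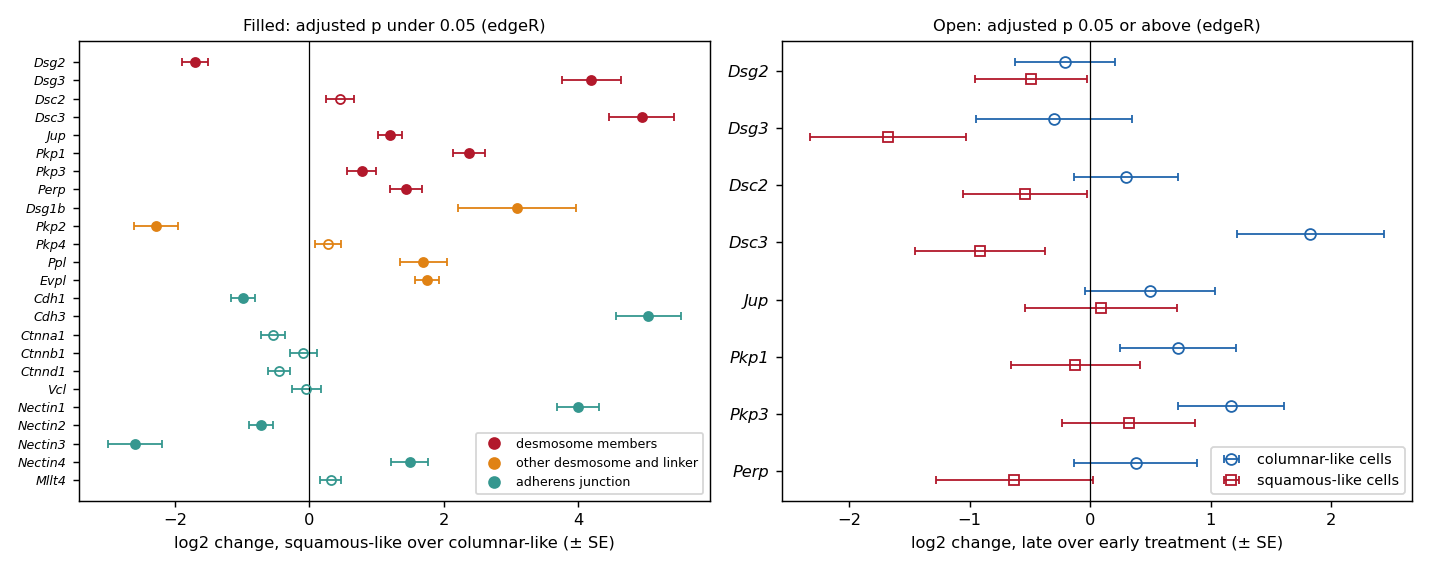
Left, log2 change between squamous-like and columnar-like cells (horizontal axis, ± SE from edgeR) of the desmosome genes and both other junction lists, filled where the adjusted p is under 0.05; right, log2 change between late and early treatment of the desmosome genes in each class. Dsg2, Pkp2, Cdh1, Nectin2 and Nectin3 lie left of 0 and filled on the left, and every point on the right is open.

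Among the squamous-like cells of day 6, the library with the most of them, 3 clusters differed in desmosome genes. In 306 cells led by Trp63, Col17a1 and Krt17, genes of basal squamous cells, Dsc3 stood at 192 CPM and Dsc2 at 93.9. In 276 cells led by Psca, Krt13 and Krt4, keratins of suprabasal mucosal layers, Dsc3 stood at 141 and Dsc2 at 324 CPM. In 146 cells led by Krt1, Krt10 and Calm4, genes of keratinizing layers, Dsc3 stood at 72.3 and Dsc2 at 169 CPM, from 18 and 42 counts.

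The Dsc3 level was thus highest in the Trp63 cluster and the Dsc2 level in the Krt13 cluster, with Poisson intervals that did not overlap. Dsg3 was at 50.4, 79.7 and 12.1 CPM (101, 187 and 3 counts) in the same order of clusters. Dsg2 was at 91.4, 92.0 and 96.4 CPM, without a difference beyond counting error. Jup (317, 672 and 591 CPM), Pkp1 (293, 527 and 402 CPM) and Perp (861, 1479 and 1033 CPM) were lowest in the Trp63 cluster. Pkp3 had 208, 218 and 305 CPM, highest in the Krt1 cluster, whose interval of 241 to 382 cleared the other clusters. The Krt1 cluster had a median of 1442 UMIs per cell against 5743.5 and 7986, all clusters came from 1 library, and no test was made.

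**Figure D4:**
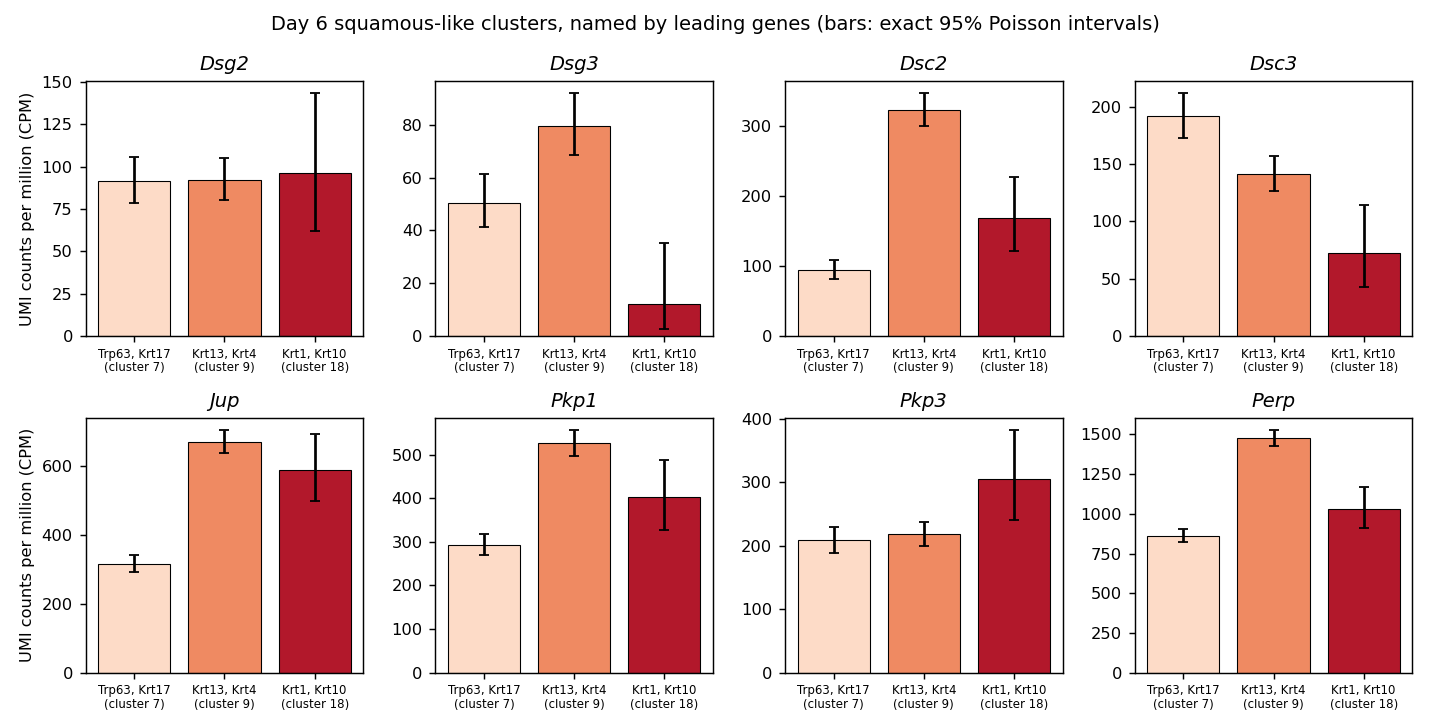
Level of each measured desmosome gene in CPM (vertical axes, from 0) in the 3 squamous-like clusters of the day 6 library, named by their leading genes, with exact 95% Poisson intervals. Dsc2, Jup, Pkp1 and Perp are lowest in the Trp63 cluster and highest in the Krt13 cluster, and Dsc3 is highest in the Trp63 cluster.

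Clusters also differed in the squamous-like cells of day 1 replicate 2. The 45 cells of the Trp63 cluster had Dsg3 at 140.2 and Dsc3 at 255 CPM. The 123 cells led by Krt17, Krt16 and Krt6a, keratins of activated squamous cells, had 42.0 and 108 CPM (12 and 31 counts). The day 3 squamous-like cells were nearly all (271 of 280) in a cluster led by Dmkn, Krtdap and Pitx1, where Dsg3 stood at 13.6 CPM, and the 28 cells of the same cluster in day 1 replicate 1 had Dsg3 at 96.6 CPM, from 15 counts in each library.

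Columnar-like clusters also differed within a library. In day 6, 337 cells led by Clca4b, Nos2 and Saa1, genes of inflamed colonocytes, had Dsg2 at 559 and Dsc2 at 267 CPM. The 718 cells led by Pigr and Car1 had 212 and 145 CPM, and the 284 cells led by Gsdmc4 and Adh1 had 322 and 159 CPM. In day 1 replicate 2, 411 cells led by Clca4a and F3 had Dsg2 at 623 and Dsc2 at 236 CPM, against 418 and 127 CPM in 473 cells led by Reg3b and Cftr. Dsg3 stayed at 1.58 to 9.17 CPM in all these clusters.

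Other epithelial classes also had Dsg2 UMIs with few or no Dsg3 UMIs, in some libraries at or below the immune level. Goblet-like cells of the treated libraries with at least 20 cells had Dsg2 at 401, 349.9 and 205 CPM in day 1 replicate 1, day 1 replicate 2 and day 6 and Dsg3 shares of 0%, 0.273% and 2.00%. Paneth-like cells had Dsg2 at 287, 143 and 173 CPM in day 1 replicate 1, day 1 replicate 2 and day 3, beside 105, 122 and 188 CPM in immune cells. Their Dsg3 counts were 2, 0 and 1. Dsc3 shares were higher than in columnar-like cells in some of these classes, at 12.5% (6 of 48 UMIs) in goblet-like cells of day 6 and 8.06% and 10.8% (5 of 62 and 4 of 37 UMIs) in Paneth-like cells of day 1 replicate 1 and day 3, from few counts. Enteroendocrine-like cells had Dsg2 at 103 to 156 CPM, and in day 6, which held 41 of them, their interval of 69.0 to 148 lay above that of immune cells. Day 1 replicate 1 was also above the immune value (156 against 105 CPM). In day 1 replicate 2 and day 3 they were below it (114 against 122 and 127 against 188 CPM). Their Dsg3 counts there were 1 of 25 and 1 of 7 desmoglein UMIs.

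Plakoglobin, which also sits in junctions other than desmosomes, was present outside the epithelium. In the normal library Jup had 355 CPM in telocyte-like, 289 in lymphatic endothelial-like and 201 in endothelial-like cells, from 93, 16 and 36 counts, beside 220.4 CPM in columnar-like and 26.8 in immune cells. Dsg2 in those 3 classes had 5, 0 and 1 counts and Dsg3 had none.

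Late and early treatment were compared within each class. In columnar-like cells 0 of 12847 genes passed the threshold in edgeR (0%), 781 had an unadjusted p under 0.05 (6.08%), and DESeq2 called 56. None of the 8 desmosome genes passed in either tool, and 2 had an unadjusted p under 0.05. These were Dsc3, with a log2 change of 1.83 (SE 0.61, edgeR adjusted p = 0.771), and Pkp3, with 1.17 (SE 0.44, edgeR adjusted p = 0.771). The Dsc3 levels behind this were 2.40 and 2.70 CPM early and 6.66 and 8.25 CPM late, below the immune cells in every library but day 1 replicate 1. In both late libraries the columnar-like and immune intervals overlapped, and the day 3 immune value rests on 2 counts. With an unnamed cluster led by Mt4, Spock2 and Wif1 added to columnar-like cells, the Dsc3 change was 0.61 (edgeR adjusted p = 0.584). Most columnar-like cells sat in clusters led by Reg3b and by Clca4a in day 1 replicate 2, by Gpx2 and by Gprc5a in day 3 and by Pigr, Clca4b and Gsdmc4 in day 6, while day 1 replicate 1 shared the Gpx2, Gprc5a and Reg3b clusters, so a change within a cell type and a change of cell types cannot be told apart. The median log2 change of the 8 genes was 0.44, beside 0.03 over all genes.

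In squamous-like cells 0 of 9758 genes passed in edgeR (0%), 378 had an unadjusted p under 0.05 (3.87%) and DESeq2 called 21. Again no desmosome gene passed in either tool, and Dsg3 alone had an unadjusted p under 0.05, with a log2 change of -1.68 (SE 0.65, edgeR adjusted p = 0.998). Within the single index libraries its log2 ratio of CPM was -3.29 (day 3 against day 1 replicate 1) and within the dual index libraries -1.14 (day 6 against day 1 replicate 2). With a library left out, the log2 change of Dsg3 was -1.76 and -1.61 without day 1 replicates 1 and 2, -1.02 without day 3 and -3.11 without day 6. Dsg3 was called only in the last of these fits, where day 3 is the only late library. Most squamous-like cells sat in the Krtdap cluster in day 1 replicate 1 and day 3, in the Krt16 cluster in day 1 replicate 2 and in the Trp63, Krt13 and Krt1 clusters in day 6, so the same limit holds here.

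Isoform shares showed no difference that 2 against 2 libraries could establish, since the smallest p that an exact permutation test can give there is 0.33. The Dsg3 share of squamous-like cells was 47.0 ± 4.47% early and 26.1 ± 20.7% late (SD, n = 2 each, exact permutation p = 0.33). The Dsc3 share was 48.0 ± 10.5% early and 41.8 ± 1.04% late (exact permutation p = 1). In columnar-like cells the Dsg3 share was 0.924 ± 0.398% early and 0.954 ± 0.394% late (exact permutation p = 0.667), and the Dsc3 share 1.63 ± 0.0251% early and 4.84 ± 1.05% late (exact permutation p = 0.33). With the immune CPM subtracted and levels below the immune one counted as 0, the differences for Dsg3 in squamous-like and for Dsc3 in columnar-like cells changed sign (0.427 and -1.13 points, late minus early). These values rest on that floor. The day 3 Dsg3 share of squamous-like cells was 100% because no Dsg2 was left. The columnar-like Dsc3 share was 2.25% in day 1 replicate 1 and 0% in the other treated libraries, where no Dsc3 was left. The immune Dsc3 level subtracted in day 3 rests on 2 counts.

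The test of whether late against early treatment differed between squamous-like and columnar-like cells gave 0 of 12603 genes in edgeR (0%), 558 with an unadjusted p under 0.05 (4.43%) and 26 in DESeq2 (0.206%). Of the desmosome genes, 0 passed in edgeR and 1, Dsc3, in DESeq2 (log2 change -2.67, DESeq2 adjusted p = 0.0242). In edgeR the log2 change of Dsc3 was -2.61 (SE 0.45, adjusted p = 0.273). With a library left out, Dsc3 passed without day 3 and without day 6, fits that each hold 1 late library. It passed in neither fit without a day 1 library. The interaction was below 0 for each of the 8 genes, while 6137 of all 12603 genes were above 0. Its median was -0.87 beside -0.02 over all genes, and 4 (Dsc2, Dsc3, Pkp3 and Perp) had an unadjusted p under 0.05. By late to early log2 ratios of CPM, this direction did not hold for every gene within each library structure. In the dual index libraries Dsg3 had -1.14 in squamous-like and -1.17 in columnar-like cells, and Pkp1 -0.28 and -0.46. In the single index libraries Dsg2 had -0.69 and -0.70. The other genes had the lower ratio in squamous-like cells in both structures. In day 3 the immune level was 27.8% of the higher class for Dsc3 (2 immune counts), 0% for Dsg3 and 40.9% to 62.8% for the others. Those others had 5.08% to 25.2% in day 1 and 10.3% to 42.8% in day 6. The part of this background and of the differing clusters in the interaction was not tested.

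By Pearson correlation of log2(CPM + 20) over 44 sums of library and cell class, among 10123 genes, the genes most like Dsg3 included Tmprss11a (r = 0.94), a protease of squamous epithelia, Dsc3 (0.94), Csn1s1 (0.91) and Trp63 (0.91), which is a squamous naming marker. For Dsg2 they were Klf5 (0.91), Cdh17 (0.90), a columnar naming marker, Ceacam1 (0.90), Kcnk1 (0.90) and Cdh1 (0.90). Dsg2 and Dsg3 had r = 0.14 with each other, and Dsg2 and Dsc2 0.83. The sums share libraries, depth and free RNA, so these values are a description and carry no test.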

How the data were processed

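The authors made the deposited UMI counts with dropEst from reads aligned to mouse GRCm38, as raw whole-number counts per barcode and gene with 1 table per library and no normalization. Barcodes outside the limits of 500 genes and 15% mitochondrial counts were removed here. The 4 treated libraries were clustered together and the normal library alone (counts scaled to 10000 per cell, 2000 variable genes without 28 junction genes, 20 principal components, 20 neighbours, Leiden method at resolution 1, leidenalg 0.10.2, igraph 0.11.9, Python 3.11.15). A marker counted with a UMI in 10% of cells and a CPM (20 added) 2 times that of other cells. Clusters needed 3 such markers, and those left were compared with non-epithelial cells at 1.25 times. Scrublet (scanpy 1.11.5, 6% expected) called 12 treated and 7 normal cells, too few to have worked, and no doublets were removed. Sums of at least 10 cells were tested with edgeR 4.0.16 (TMM, filterByExpr) in R 4.3.3, with DESeq2 1.42.0 as an alternative. The method was tested on simulated data. All list members were named, other junction genes by counts with values for those with most UMIs or a call, and 5 most alike genes for Dsg2 and Dsg3, of which 1 is not reported here. The members, lists and naming rule were chosen with earlier results of these data known. A DESeq2 adjusted p given as NA was left out of its counts. No column of per-sample values was left unmapped (0).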

Additional observations from a re-analysis of the deposited data

Results flagged for a closer look

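Dsc3 levels of late and early libraries were ordered in opposite ways in the classes, although neither class passed on its own (edgeR adjusted p = 0.771 in columnar-like and 0.998 in squamous-like cells). In columnar-like cells both late libraries (6.66 and 8.25 CPM) were above both early ones (2.40 and 2.70 CPM), and in squamous-like cells both late libraries (79.7 and 159.8 CPM) were below both early ones (317 and 186 CPM). The squamous-like intervals of day 6 (148 to 172 CPM) and day 1 replicate 2 (161 to 214 CPM) overlapped. How many of all genes have such an order was not counted. The columnar-like order leaves out the unnamed Wif1 cluster described below, where Dsc3 stood at 5.92 and 19.8 CPM in day 1 replicates 1 and 2. With that cluster added, the columnar-like log2 change of Dsc3 was 0.61 (edgeR adjusted p = 0.584) instead of 1.83. The log2 change of late against early treatment differed by -2.61 (squamous-like minus columnar-like), and the test of this difference missed the threshold in edgeR (adjusted p = 0.273, between 0.000103 and 1.00 over its alternatives) and passed in DESeq2 (adjusted p = 0.0242). Within the single index libraries the log2 ratio of CPM was 1.47 in columnar-like and -1.99 in squamous-like cells, and within the dual index libraries 1.61 and -0.22. The columnar-like levels rest on 3, 20, 28 and 69 counts and stood below the immune cells in 3 of 4 libraries. The intervals of these classes overlapped in day 3 (2 immune counts) and day 6. The part of this background in the columnar-like difference was not tested.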

How the results depend on the processing

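Between squamous-like and columnar-like cells, 4 members and 949 of 11537 genes were called without the library term. With a library left out, the count ran from 1755 of 10562 to 2667 of 12498 genes. Late against early, columnar-like cells gave 1 gene with cells classed one by one or without the cluster led by Clca4a, 252 without the filter on low counts, 56 by DESeq2 and 0 to 1004 with a library left out. Squamous-like cells gave 96 genes without the filter, 21 by DESeq2 or with library structure as a term, and 13 to 75 genes and 0 to 1 members with a library left out. The difference between the classes gave 11 genes with cells classed one by one, 133 genes and 1 member without the filter, 26 and 1 by DESeq2, and 0 to 334 genes and 0 to 2 members with a library left out, 1 without day 3 and 2, Dsc3 and Dsg3 (log2 change -2.99, edgeR adjusted p = 0.0422), without day 6.

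Values that changed sign, late minus early and none past the threshold where tested, were the Dsg3 share in columnar-like cells (-0.243 points without the columnar-like cluster with the lowest fold of columnar markers, -0.251 to 0.311 with a library left out), the Dsc3 share there (-0.733 with the Wif1 cluster added, -1.13 with the immune level subtracted) and both shares in squamous-like cells (Dsg3 0.427 with the immune level subtracted, Dsc3 -13.6 to 1.22 with a library left out). In columnar-like cells the log2 changes of Dsg2 (0.11) and Dsg3 (0.31) changed sign with the Wif1 cluster, and that of Dsg3 with cells classed one by one (0.082) and without the Clca4a cluster (0.036). With a library left out they ran there from -0.21 to 0.69 for Dsc2, -0.45 to 0.017 for Dsg2, -0.53 to 0.24 for Dsg3, -0.13 to 1.04 for Jup and -0.35 to 0.87 for Perp. In squamous-like cells they ran from -0.61 to 0.56 for Jup (-0.0088 with structure as a term), -0.30 to 0.039 for Pkp1 and -0.23 to 0.72 for Pkp3, and the difference between the classes from -0.73 to 0.10 for Dsg2. The sign changes with the immune level subtracted came with shares of 0% or 100%, reached because levels below the immune one were counted as 0. The causes of the others were not tested. Normal Dsg2 was 373 CPM with cells classed one by one. The alternatives on the Wif1, Clca4a and lowest-fold clusters and on the normal cells were chosen after seeing the data. Clustering resolution, removal of the 6% highest doublet scores and DESeq2 size factors changed no call of a desmosome gene. The classes of day 6 did depend on resolution. At 0.5 they held 584 squamous-like and 1501 columnar-like cells, instead of 730 and 1344. The doublet scores came from the Scrublet run that called too few cells to have worked, so their removal cannot show whether doublets matter.

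With 2 libraries a group, and few counts of Dsg3 and Dsc3 outside squamous-like cells, small changes over time were not detectable. No paired analysis was possible by replicate number, because the labels of the late libraries carry none. Each early library shares its library structure with 1 late library, and with structure as a term no desmosome gene was called in either class (squamous-like Dsg3 -1.94, edgeR adjusted p = 0.220).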

Other observations

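A cluster of 539 cells led by Mt4, Spock2 and Wif1, with Nkd1 and Dkk2 among its leading genes, did not meet the naming rule. It entered no main comparison, only the alternatives in which it was added to columnar-like cells. It held 156, 343, 23 and 17 cells of day 1 replicate 1, day 1 replicate 2, day 3 and day 6. In day 1 replicate 1 these were more than the 124 columnar-like cells, so the early columnar-like values leave out many cells that may be epithelial. Its Cdh1 level was 923 and 522 CPM in the 2 day 1 libraries. Its Dsg2 level there was 345 and 372 CPM, above the immune 105 and 122 CPM and below the columnar-like 494 and 486 CPM. Its Dsg3 level was 1.62 and 1.00 CPM (3 and 4 counts). Dsc2 was lower than in columnar-like cells, at 49.5 and 48.0 CPM, which is near the immune values. Dsc3 stood at 19.8 CPM (79 counts, interval 15.7 to 24.7) in day 1 replicate 2, above the immune value of 8.09 and the columnar-like value of 2.70, and at 5.92 CPM (11 counts, interval 2.96 to 10.6) in day 1 replicate 1.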
